A study of Homo sapiens with 4 samples.

Results

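The genes described here are 31 genes of cholesterol and fatty acid synthesis, taken by name from a list of mevalonate, sterol and fatty acid synthesis genes with the regulators of the SREBP transcription factors, and all 31 were found among the 19912 genes of the count table. They were measured by RNA sequencing in endothelial cells derived from H1, a human embryonic stem cell line, and carrying the GATA2/eGFP reporter signal. The GFI1-KO group held 2 libraries of cells in which GFI1 was knocked out, and the WT group held 2 libraries of unaltered genotype. GFI1 encodes a zinc finger repressor known from the step in which endothelial cells give rise to blood cells. The labels name no treatment or time point for either group. They state neither the number of clones nor the part of GFI1 that was altered and leave unsaid whether replicates were grown as separate cultures. The p-values therefore describe only how these samples varied, and that variation may be technical.

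In the mevalonate pathway, acetyl-CoA units are joined and reduced to build isoprenoids, which are condensed to squalene and cyclized to lanosterol, and a chain of demethylation and reduction steps then leads to cholesterol. Transcription of these genes is driven by SREBP proteins, which SCAP carries from the endoplasmic reticulum to the Golgi for cleavage when membrane sterol is low and which INSIG proteins hold back when sterol is plentiful. SREBP-2, encoded by SREBF2, acts mainly on sterol genes, and SREBP-1, encoded by SREBF1, mainly on fatty acid genes.

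Library totals were 146584 and 2332621 counts for GFI1-KO replicates 1 and 2, and 2239214 and 2417410 for WT replicates 1 and 2, so GFI1-KO replicate 1 was far shallower than the rest. In that library the 31 genes had between 0 and 309 counts, with a median of 22.0, and 8 of them had fewer than 10. GFI1 had 19.9 and 19.6 CPM in GFI1-KO replicates 1 and 2, against 58.5 and 58.3 CPM in WT replicates 1 and 2 (log2 fold change -1.57, SE 0.31, edgeR adjusted p = 0.0215), where CPM is the count scaled to the library total after TMM adjustment. GATA2 was also lower (log2 fold change -1.09, SE 0.23, edgeR adjusted p = 0.0376). The GFI1 value in the shallow GFI1-KO replicate 1 rests on only 3 counts. The 12 endothelial markers summed to 10023 and 11065 CPM in the GFI1-KO libraries, against 7086 and 7194 CPM in the WT libraries. None was at 0 in any library, and KDR had the most counts. Of the 12, 3 were called higher in GFI1-KO cells, beside 88 of all 11380 genes tested. By log2 fold change, 11 were above 0 and 1 was below. The 7 pluripotency markers summed to 603 and 569 CPM in the GFI1-KO libraries, against 748 and 779 CPM in the WT libraries, the 11 erythroid markers to 39.7 and 35.2 CPM in the GFI1-KO libraries, against 51.8 and 51.2 CPM in the WT libraries, and the 9 leukocyte markers to 19.9 and 18.2 CPM in the GFI1-KO libraries, against 18.8 and 19.7 CPM in the WT libraries. Of the pluripotency markers, LIN28A alone had 603 and 635 CPM in WT replicates 1 and 2, and POU5F1 had 1.79 and 5.46 CPM. The part of these marker levels in the results was not tested. The globin genes HBE1, HBZ, HBG1, HBG2, HBA1 and HBA2, the leukocyte genes PTPRC and CD3E, and the pluripotency genes NANOG and PRDM14 had no counts in any library. In bulk RNA, fewer cells of a type and less RNA per cell cannot be told apart.

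No cholesterol or fatty acid synthesis gene was called changed between GFI1-KO and WT cells. All 31 passed the low-count filter, and none had an edgeR adjusted p under 0.05. Beside this, 0.958% of the 11380 genes tested were called (88 higher and 21 lower in GFI1-KO cells), and 0 of 31 is near that share. None of the 31 had an unadjusted edgeR p under 0.05, beside 9.35% of all genes tested. The lowest adjusted p among the 31 was 0.594, for FDPS. DESeq2 called none and gave none an unadjusted p under 0.05, and limma-voom called none and gave 1 an unadjusted p under 0.05. The p-values do not show that the genes were alike in the genotypes, but for 24 of the 31 the 95% interval of the fold change lay within 2-fold in either direction.

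Most fold changes were above 0, although none passed the test. The log2 fold change was above 0 for 27 of the 31 genes, against 47.5% of all genes tested, and its median was 0.19, against -0.02 over all genes tested. The median was 0.41 for the 8 mevalonate genes, 0.21 for the 11 sterol genes, 0.07 for the 6 regulators and 0.12 for the 6 fatty acid genes. Both GFI1-KO libraries lay above both WT libraries for 7 genes (MVK, PMVK, IDI1, FDPS, LSS, LBR and ACACA), beside 18.6% of all genes tested, a share near that background, and below both for 1 gene (SCAP), beside 22.7%. The libraries overlapped for the other 23. The median also depended on which WT library was used: it was 0.47 when WT replicate 1 was left out and 0.02 when WT replicate 2 was left out. It was 0.27 with the shallow GFI1-KO replicate 1 left out and 0.13 with GFI1-KO replicate 2 left out. The number of genes above 0 was 17 of 31 with WT replicate 2 left out and 18 of 31 with GFI1-KO replicate 2 left out, and 27 or 28 of 31 with either of the others left out. No gene of the 31 was called in any of these fits.

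**Figure D1:**
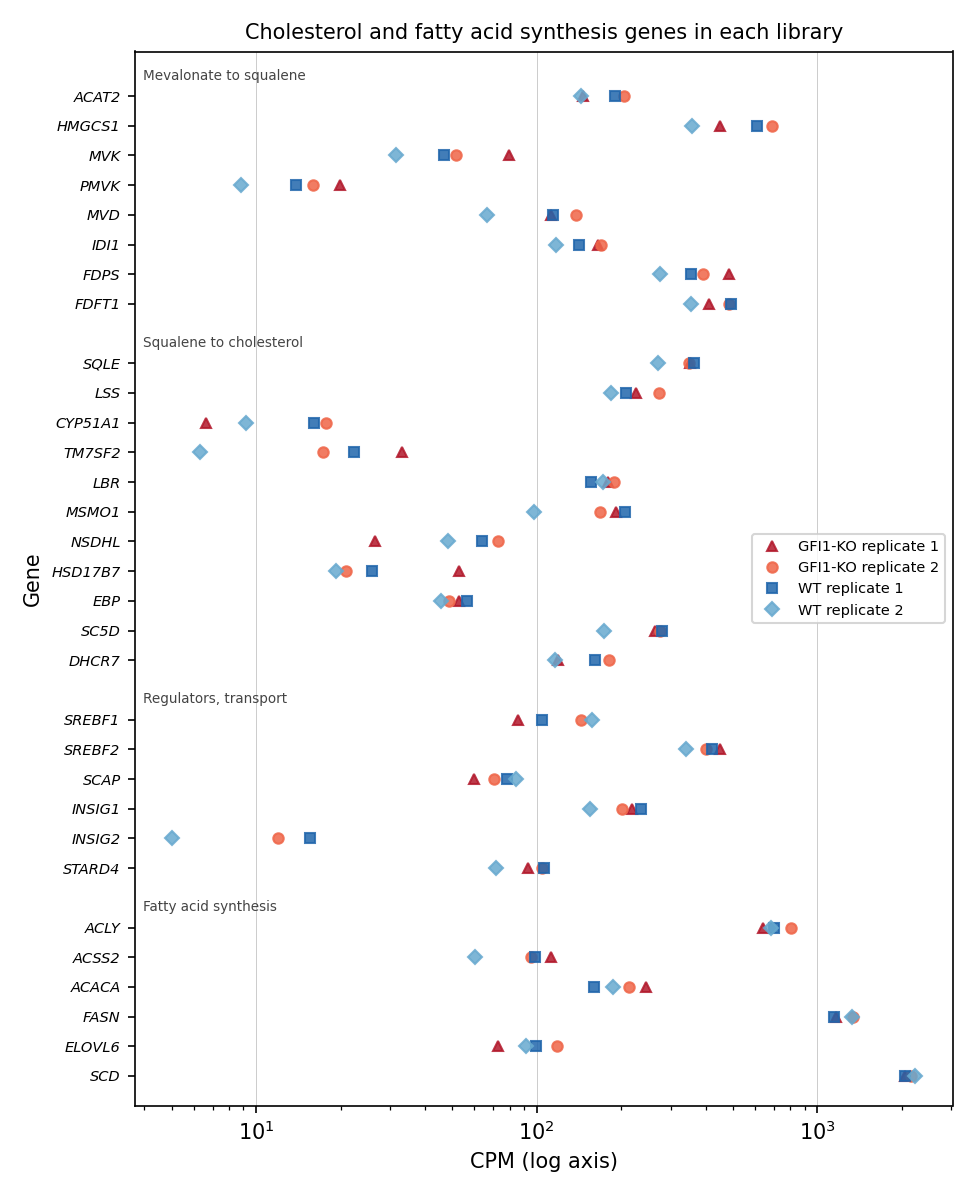
Expression of the 31 genes in each of the 4 libraries, in CPM on a log axis, grouped by role, with GFI1-KO and WT libraries marked apart. INSIG2, with 0 counts in GFI1-KO replicate 1, has no point there; among mevalonate genes WT replicate 2 is the lowest point in 8 of 8.

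**Figure D2:**
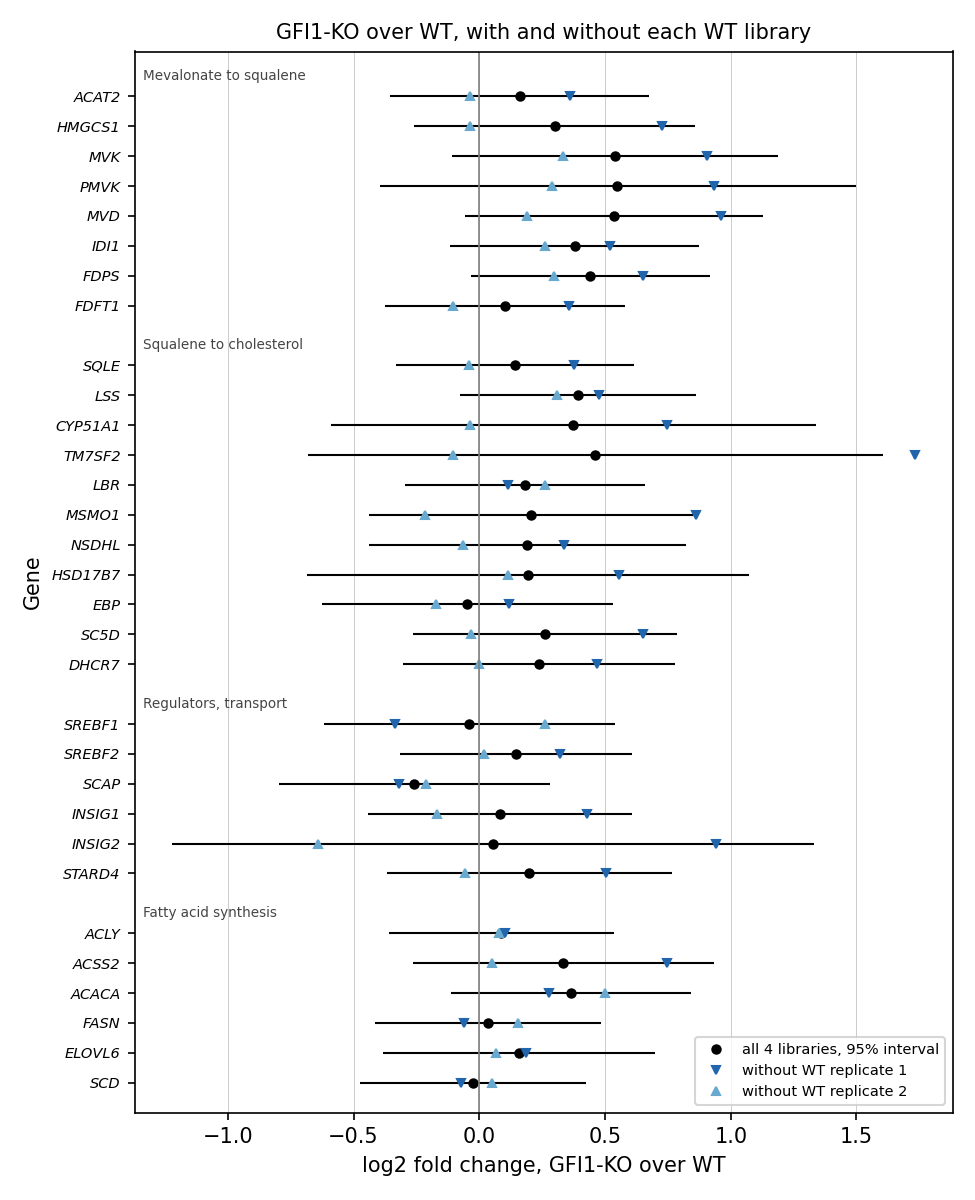
Log2 fold change of GFI1-KO over WT for each of the 31 genes, with the 95% interval from the edgeR fit, grouped by role. Points lie above 0 for 27 genes and every interval spans 0.

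The mevalonate genes had the highest median fold change of the 4 roles, and all 8 were above 0. Both GFI1-KO libraries lay above both WT libraries for 4 of the 8 (FDPS, MVK, PMVK and IDI1), beside 18.6% of all genes tested. WT replicate 2 was the lowest of the 4 libraries for all 8, beside 20.4% of all genes tested. FDPS (ENSG00000160752, chr1:155308748-155320666, plus strand), which makes farnesyl diphosphate, had 484 and 391 CPM in GFI1-KO replicates 1 and 2, against 353 and 275 CPM in WT replicates 1 and 2. Both GFI1-KO libraries were above both WT libraries, and the level averaged 437 ± 65.3 CPM in GFI1-KO cells and 314 ± 55.1 CPM in WT cells (SD, n = 2 each) (log2 fold change 0.44, SE 0.23, edgeR adjusted p = 0.594, 95% interval of the fold 0.977 to 1.89). FDPS has 8 named pseudogenes and its exons overlap the antisense gene RUSC1-AS1 over 18.6% of their length, so its counts are less certain where reads match more than 1 of them. MVD (ENSG00000167508, chr16:88651935-88663161, minus strand), which decarboxylates mevalonate diphosphate, had 113 and 138 CPM in GFI1-KO replicates 1 and 2, against 114 and 66.7 CPM in WT replicates 1 and 2. GFI1-KO replicate 1 lay just under WT replicate 1, so the groups overlapped, and WT replicate 2 was far lower than the other libraries (log2 fold change 0.53, SE 0.28, edgeR adjusted p = 0.61, 95% interval of the fold 0.96 to 2.18). MVK (ENSG00000110921, chr12:109573255-109598117, plus strand), the kinase that acts on mevalonate first, had 79.5 and 51.6 CPM in GFI1-KO replicates 1 and 2, against 46.9 and 31.5 CPM in WT replicates 1 and 2. Here the groups did not overlap, although the value of GFI1-KO replicate 1 came from 12 counts (log2 fold change 0.54, SE 0.31, edgeR adjusted p = 0.673, 95% interval of the fold 0.928 to 2.28).

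The remaining mevalonate genes had smaller or less certain differences. PMVK, the second kinase of the pathway, had 19.9 and 16.0 CPM in the GFI1-KO libraries and 13.8 and 8.81 CPM in the WT libraries, with 3 counts in GFI1-KO replicate 1. IDI1, which isomerizes isopentenyl diphosphate, had 166 and 169 CPM in the GFI1-KO libraries and 141 and 118 CPM in the WT libraries. Both of these genes had GFI1-KO libraries above WT libraries, with edgeR adjusted p-values of 0.837 for PMVK and 0.725 for IDI1. HMGCS1, which makes HMG-CoA, had 450.5 and 692 CPM in the GFI1-KO libraries and 607 and 356 CPM in the WT libraries, and is named here because its WT libraries differed, a choice made after its values were seen. ACAT2, which joins acetyl-CoA units, had 146 and 205 CPM in the GFI1-KO libraries and 190.2 and 144 CPM in the WT libraries, and its exons share 26.5% of their length with SOD2 on the opposite strand. FDFT1, the squalene synthase, had 411 and 483 CPM in the GFI1-KO libraries and 491 and 356 CPM in the WT libraries. For these 3 genes the groups overlapped, with log2 fold changes of 0.30, 0.16 and 0.10 in that order.

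Among the 11 sterol genes, which lead through lanosterol to cholesterol, 10 had fold changes above 0. Only LSS and LBR had both GFI1-KO libraries above both WT libraries, beside 18.6% of all genes tested, a share near that background. LSS (ENSG00000160285, chr21:46188141-46228824, minus strand), which cyclizes oxidosqualene to lanosterol, had 225 and 273 CPM in GFI1-KO replicates 1 and 2, against 207 and 184 CPM in WT replicates 1 and 2. Its GFI1-KO libraries were both higher, and the level averaged 249 ± 34.0 CPM in GFI1-KO cells and 196 ± 16.3 CPM in WT cells (SD, n = 2 each) (log2 fold change 0.39, SE 0.22, edgeR adjusted p = 0.668, 95% interval of the fold 0.949 to 1.82). SC5D (ENSG00000109929, chr11:121292453-121308694, plus strand), a desaturase late in the pathway, had 265 and 274 CPM in GFI1-KO replicates 1 and 2, against 279 and 173 CPM in WT replicates 1 and 2. The GFI1-KO libraries and WT replicate 1 were close together and WT replicate 2 was lower (log2 fold change 0.26, SE 0.25, edgeR adjusted p = 0.873, 95% interval of the fold 0.832 to 1.73). DHCR7 (ENSG00000172893, chr11:71428193-71452868, minus strand), which reduces 7-dehydrocholesterol to cholesterol, had 119 and 181 CPM in GFI1-KO replicates 1 and 2, against 161 and 116 CPM in WT replicates 1 and 2. The groups overlapped, with the lowest values in GFI1-KO replicate 1 and WT replicate 2 (log2 fold change 0.24, SE 0.26, edgeR adjusted p = 0.896, 95% interval of the fold 0.809 to 1.71).

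MSMO1, a demethylating oxidase of the sterol ring, had 192 and 168 CPM in GFI1-KO replicates 1 and 2, against 207 and 97.8 CPM in WT replicates 1 and 2, and was chosen after its values were seen because its WT libraries stood so far apart. The GFI1-KO libraries lay between the 2 WT libraries (log2 fold change 0.21, SE 0.30, edgeR adjusted p = 0.939). SQLE, the squalene epoxidase, had 351 and 349 CPM in the GFI1-KO libraries and 363 and 271 CPM in the WT libraries, so that WT replicate 2 alone was low. LBR, a nuclear envelope protein with sterol reductase activity, had 179 and 189 CPM in the GFI1-KO libraries and 156 and 172 CPM in the WT libraries, with all 4 libraries close. TM7SF2, a second sterol reductase, had 33.1 and 17.4 CPM in the GFI1-KO libraries and 22.3 and 6.29 CPM in the WT libraries, with counts of 5, 39, 50, 15 in the same order. CYP51A1, the lanosterol demethylase, had 6.62 and 17.8 CPM in the GFI1-KO libraries and 16.1 and 9.23 CPM in the WT libraries, from counts of 1, 40, 36, 22. CYP51A1 has 3 named pseudogenes, and 79.4% of its exon length is shared with the annotated gene AC000120.2 on the same strand, which the count table does not list, so its counts are uncertain. NSDHL, a sterol dehydrogenase, had 26.5 and 73.0 CPM in the GFI1-KO libraries and 63.9 and 48.3 CPM in the WT libraries, and HSD17B7, a ketosteroid reductase, had 53.0 and 20.9 CPM in the GFI1-KO libraries and 25.9 and 19.3 CPM in the WT libraries. EBP, a sterol isomerase, had 53.0 and 48.5 CPM in the GFI1-KO libraries and 56.3 and 45.7 CPM in the WT libraries. All 3 rested on 4 to 8 counts in GFI1-KO replicate 1, and their groups overlapped. Their log2 fold changes were 0.19, 0.19 and -0.05 in that order. HSD17B7 also has 2 named pseudogenes.

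The regulators had fold changes on both sides of 0, 4 above and 2 below. SREBF2 (ENSG00000198911, chr22:41833079-41907308, plus strand) had 450.5 and 401 CPM in GFI1-KO replicates 1 and 2, against 419.8 and 339 CPM in WT replicates 1 and 2. Its libraries overlapped (log2 fold change 0.15, SE 0.22, edgeR adjusted p = 0.941, 95% interval of the fold 0.804 to 1.52). SREBF1 (ENSG00000072310, chr17:17810399-17837002, minus strand) had 86.1 and 143 CPM in GFI1-KO replicates 1 and 2, against 104 and 158 CPM in WT replicates 1 and 2. The order of its WT libraries was the reverse of that of SREBF2, and the groups overlapped (log2 fold change -0.04, SE 0.27, edgeR adjusted p = 0.995, 95% interval of the fold 0.651 to 1.45). SCAP (ENSG00000114650, chr3:47413694-47477126, minus strand), the sterol-sensing escort, had 59.6 and 70.3 CPM in GFI1-KO replicates 1 and 2, against 78.6 and 84.3 CPM in WT replicates 1 and 2. It was the only gene of the 31 with both GFI1-KO libraries below both WT libraries (log2 fold change -0.26, SE 0.26, edgeR adjusted p = 0.88, 95% interval of the fold 0.575 to 1.21).

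INSIG1 (ENSG00000186480, chr7:155297776-155310235, plus strand), which retains SCAP and is itself a known SREBP target, had 219 and 202 CPM in GFI1-KO replicates 1 and 2, against 236 and 155 CPM in WT replicates 1 and 2. The GFI1-KO libraries lay between the WT libraries (log2 fold change 0.08, SE 0.25, edgeR adjusted p = 0.98, 95% interval of the fold 0.736 to 1.52). INSIG2 (ENSG00000125629, chr2:118088452-118110997, plus strand), its paralogue, had 0 and 12.0 CPM in GFI1-KO replicates 1 and 2, against 15.6 and 5.04 CPM in WT replicates 1 and 2. The 0 counts in GFI1-KO replicate 1 allow up to 19.9 CPM by a limit of 3 counts, which covers counting error only and lies above every other library, so that library does not show whether INSIG2 was higher or lower there (log2 fold change 0.05, SE 0.60, edgeR adjusted p = 0.998, 95% interval of the fold 0.429 to 2.51). STARD4 (ENSG00000164211, chr5:111496033-111512590, minus strand), which moves cholesterol between membranes, had 92.7 and 105 CPM in GFI1-KO replicates 1 and 2, against 106 and 71.3 CPM in WT replicates 1 and 2. Again WT replicate 2 was the lowest library and the other 3 were close (log2 fold change 0.20, SE 0.27, edgeR adjusted p = 0.93, 95% interval of the fold 0.776 to 1.70).

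The fatty acid genes held the most abundant transcripts of the 31, and 5 of the 6 had fold changes above 0. ACACA (ENSG00000278540, chr17:37084988-37406818, minus strand), the acetyl-CoA carboxylase that commits carbon to fatty acids, had 245 and 213 CPM in GFI1-KO replicates 1 and 2, against 160.3 and 187 CPM in WT replicates 1 and 2. It was the only fatty acid gene whose groups did not overlap (log2 fold change 0.36, SE 0.23, edgeR adjusted p = 0.73, 95% interval of the fold 0.924 to 1.79). Both GFI1-KO libraries lay above both WT libraries in 18.6% of all genes tested. ACSS2 (ENSG00000131069, chr20:34872146-34927962, plus strand), which activates acetate, had 113 and 95.7 CPM in GFI1-KO replicates 1 and 2, against 98.2 and 60.4 CPM in WT replicates 1 and 2. WT replicate 2 was low and the other libraries were close (log2 fold change 0.33, SE 0.28, edgeR adjusted p = 0.845, 95% interval of the fold 0.833 to 1.91). ELOVL6 (ENSG00000170522, chr4:110045846-110199199, minus strand), an elongase, had 72.9 and 118 CPM in GFI1-KO replicates 1 and 2, against 99.6 and 91.5 CPM in WT replicates 1 and 2. The GFI1-KO libraries lay on either side of the WT libraries (log2 fold change 0.16, SE 0.26, edgeR adjusted p = 0.947, 95% interval of the fold 0.766 to 1.62).

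SCD, which places the double bond of oleic acid, had 2047 and 2162 CPM in the GFI1-KO libraries and 2054 and 2233 CPM in the WT libraries, from counts of 309, 4858, 4600, 5322 in the same order. SCD has 1 named pseudogene. FASN, the fatty acid synthase, had 1166 and 1342 CPM in the GFI1-KO libraries and 1143 and 1324 CPM in the WT libraries, and ACLY, which makes cytosolic acetyl-CoA from citrate, had 643 and 806 CPM in the GFI1-KO libraries and 699.8 and 686 CPM in the WT libraries. In all 3 genes the libraries overlapped, and the 95% interval of the fold was 0.721 to 1.34 for SCD, 0.749 to 1.40 for FASN and 0.779 to 1.45 for ACLY.

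The 2 WT libraries differed from each other across the sterol pathway, a comparison made after the values were seen. WT replicate 2 had a lower CPM than WT replicate 1 for 18 of the 19 mevalonate and sterol genes, the exception being LBR, and for 25 of all 31 genes, against 50.3% of all genes tested. It was at least 1.5-fold lower for 10 of the 31 genes, beside 9.35% of all genes tested, and at least 1.5-fold higher for 1, SREBF1, beside 6.99%. With exact 95% intervals of the ratio of counts, the interval lay wholly below 1 for 18 of the 31 genes, beside 12.4% of all genes tested, and wholly above 1 for 4, beside 13.2%. These intervals cover counting error in single libraries and are no replicate test.

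The ratio of WT replicate 2 to WT replicate 1 was lowest for TM7SF2, at 0.282 (95% interval 0.147 to 0.51), and INSIG2, at 0.322 (95% interval 0.152 to 0.636), both low in counts. Among well-counted genes it was 0.473 (95% interval 0.402 to 0.555) for MSMO1, 0.584 (95% interval 0.476 to 0.714) for MVD, 0.587 (95% interval 0.538 to 0.64) for HMGCS1 and 0.621 (95% interval 0.547 to 0.704) for SC5D. It was 0.659 (95% interval 0.575 to 0.754) for INSIG1 and 0.808 (95% interval 0.734 to 0.888) for SREBF2. The median ratio was 0.698 over the mevalonate genes and 0.745 over the sterol genes, against 0.998 over all genes tested. Among fatty acid genes ACSS2 was also lower, at 0.615 (95% interval 0.495 to 0.762). The 3 abundant fatty acid genes did not share this, with ratios of 1.09 (95% interval 1.04 to 1.13) for SCD, 1.16 (95% interval 1.10 to 1.22) for FASN and 0.98 (95% interval 0.914 to 1.05) for ACLY, nor did SREBF1, at 1.51 (95% interval 1.28 to 1.79).

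**Figure D3:**
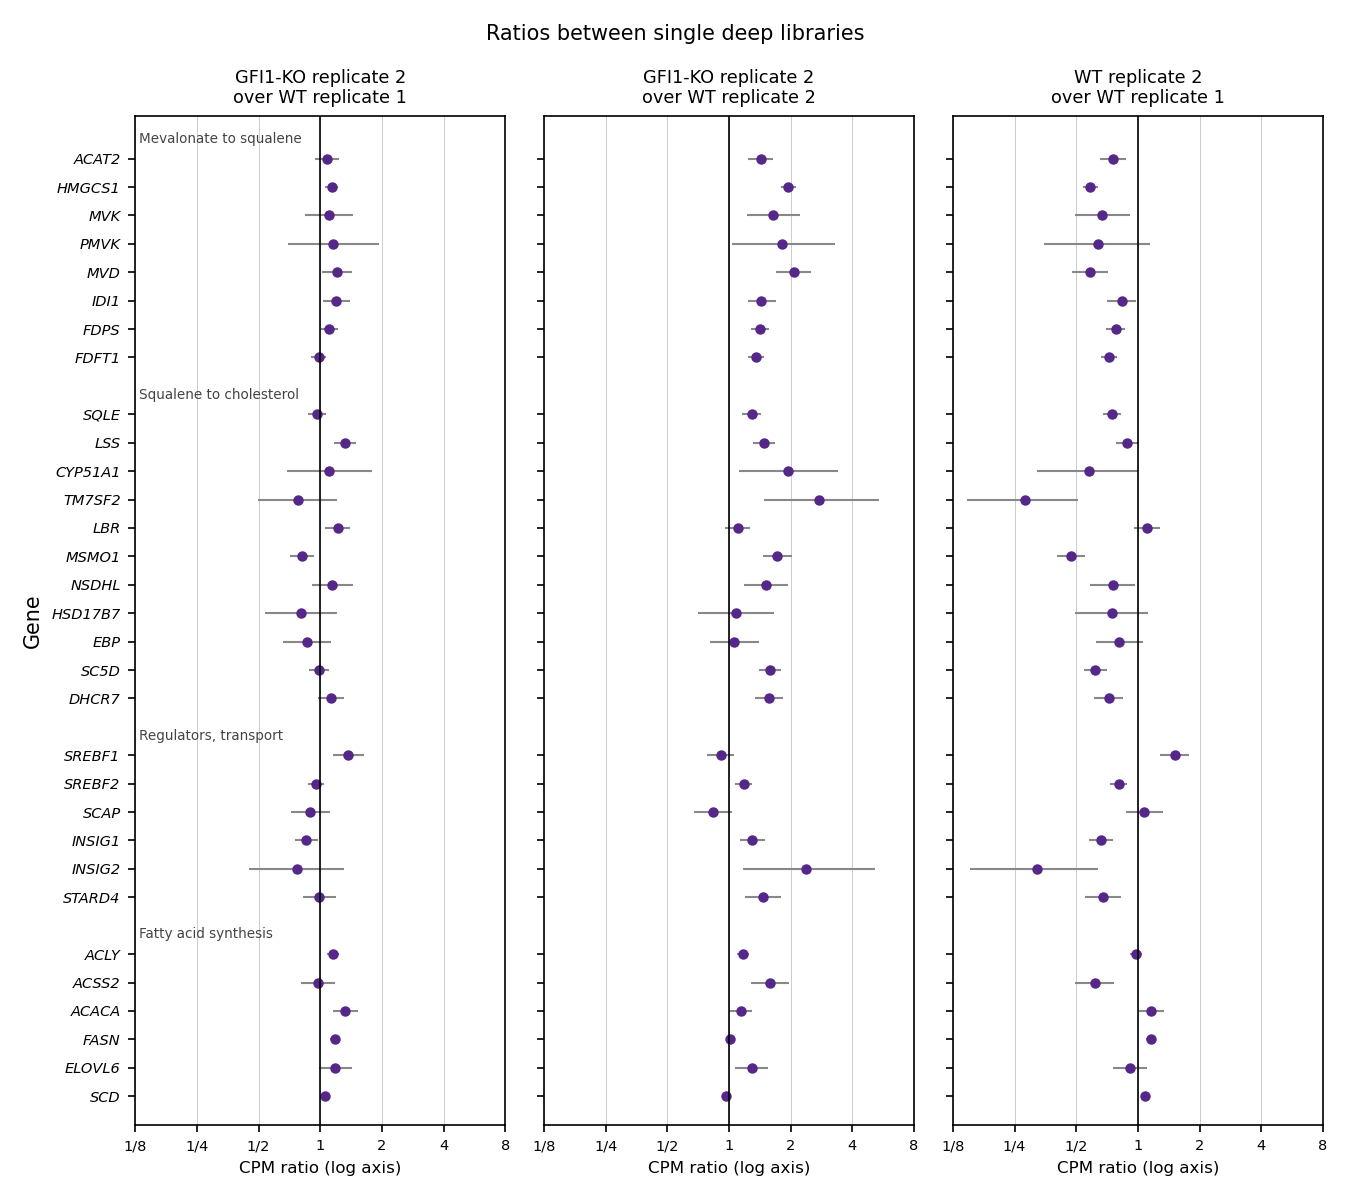
Ratio of CPM on a log axis for each of the 31 genes, by role, with exact 95% counting intervals, for GFI1-KO replicate 2 over WT replicate 1, GFI1-KO replicate 2 over WT replicate 2 and WT replicate 2 over WT replicate 1. The ratio of WT replicate 2 to WT replicate 1 lies below 1 for 25 genes, with a median of 0.747.

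Summed by role, the mevalonate genes had 1868 and 2146 CPM in the GFI1-KO libraries, against 1957 and 1356 CPM in the WT libraries, and the sterol genes had 1504 and 1613 CPM in the GFI1-KO libraries, against 1557 and 1143 CPM in the WT libraries. In both sums WT replicate 2 alone was low, and the GFI1-KO libraries lay near WT replicate 1. The regulators summed to 908 and 933 CPM in the GFI1-KO libraries, against 960.1 and 813 CPM in the WT libraries, and the fatty acid genes to 4286 and 4736 CPM in the GFI1-KO libraries, against 4255 and 4582 CPM in the WT libraries. WT replicate 2 was the lowest of the 3 deep libraries for 25 of the 31 genes (80.6%), against 31.3% of all genes tested.

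**Figure D4:**
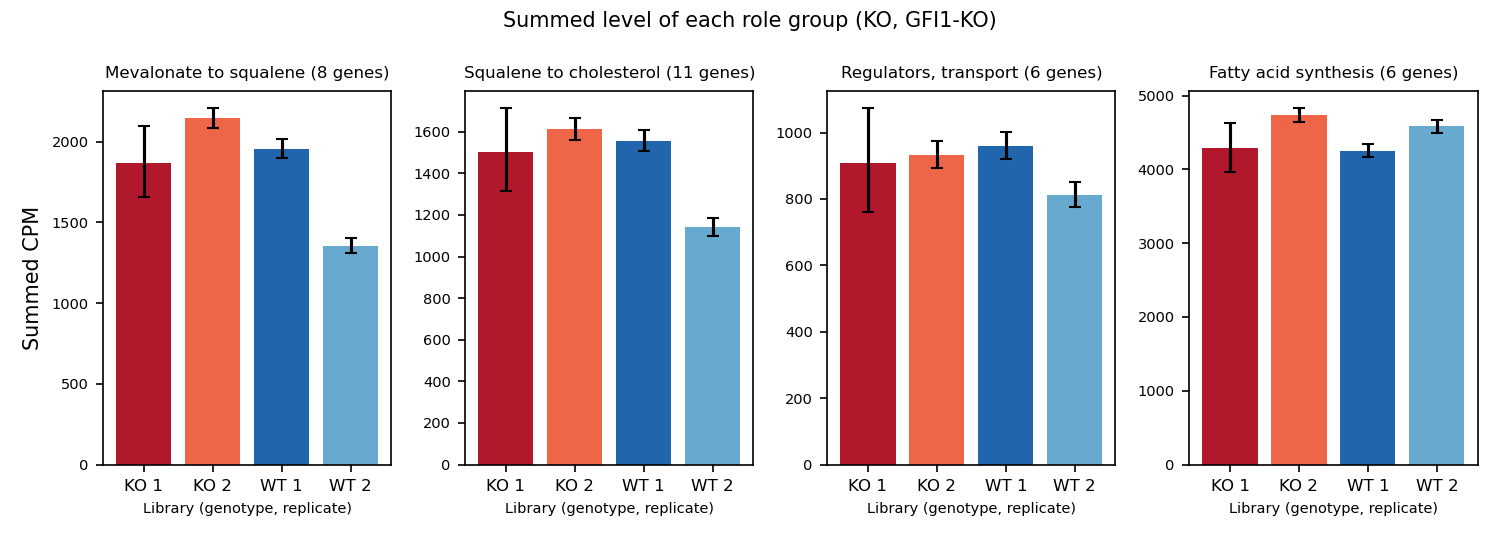
Summed CPM of the genes of each role in each library, with exact 95% counting intervals. The mevalonate sum is 1356 CPM in WT replicate 2 and between 1868 and 2146 CPM in the other 3 libraries.

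How far a GFI1-KO library differed from WT depended on the WT library it was set against. GFI1-KO replicate 2, the deep one, was at least 1.5-fold higher than WT replicate 2 for 12 of the 31 genes, beside 11.3% of all genes tested, and at least 1.5-fold lower for none, beside 8.63%. Against WT replicate 1 it was at least 1.5-fold higher for none, beside 10.8% of all genes tested. It was at least 1.5-fold lower for none, beside 10.8%. Smaller differences remained against WT replicate 1. There the exact counting interval of the ratio lay wholly above 1 for 11 of the 31 genes, beside 16.6% of all genes tested. That interval lay wholly below 1 for 2, beside 13.8%. Against WT replicate 2 it lay wholly above 1 for 23, beside 15.2%, and wholly below 1 for none, beside 12.9%. Such intervals cover counting error only. These comparisons share libraries with each other and with that between the WT libraries. For MVD the log2 fold change was 0.96 with WT replicate 1 left out and 0.19 with WT replicate 2 left out, and in the same order for HMGCS1 it was 0.73 and -0.04. For ACACA it was 0.28 and 0.50, so that this gene did not rest on the low WT library.

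Other markers also moved between the WT libraries. Of the 8 mesenchymal and smooth muscle markers, none was at 0 in every library. However, 1 was at 0 in each WT library and 2 were at 0 in GFI1-KO replicate 1. The 8 markers summed to 1059.9 and 1252 CPM in the GFI1-KO libraries, against 1676 and 1053 CPM in the WT libraries. WT replicate 1 had the highest sum of these markers. COL3A1, the largest of them in WT replicate 1, had 484 and 538 CPM in GFI1-KO replicates 1 and 2, against 802 and 332 CPM in WT replicates 1 and 2. COL1A1 moved less, with 700 and 564 CPM in WT replicates 1 and 2, and TAGLN rose, with 51.4 and 85.6 CPM. Of the 7 tested, 5 were lower in WT replicate 2 than in WT replicate 1 and 2 were higher. The 16 proliferation genes summed to 3392 and 3709.6 CPM in the GFI1-KO libraries, against 3368 and 4079 CPM in the WT libraries, with WT replicate 2 the highest. The part of either in the sterol gene differences was not tested.

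Compared per kilobase of annotated exons, SCD was the most abundant of the 31 genes, at 393 ± 15.2 CPM per kb in GFI1-KO cells and 399.8 ± 23.6 CPM per kb in WT cells (SD, n = 2 each), above 99.6% of all genes tested. ACLY followed with 139 ± 22.1 CPM per kb in GFI1-KO cells and 133 ± 1.85 CPM per kb in WT cells, and FASN with 134 ± 13.3 CPM per kb in GFI1-KO cells and 132 ± 13.7 CPM per kb in WT cells, and these differed by less than the spread between libraries. HMGCS1 had 121 ± 36.3 CPM per kb in GFI1-KO cells and 102 ± 37.7 CPM per kb in WT cells, and FDPS had 118 ± 17.6 CPM per kb in GFI1-KO cells and 84.5 ± 14.8 CPM per kb in WT cells, the highest levels among the sterol pathway genes. SREBF2 had 56.3 ± 4.66 CPM per kb in GFI1-KO cells and 50.2 ± 7.55 CPM per kb in WT cells, above SREBF1 with 14.3 ± 5.04 CPM per kb in GFI1-KO cells and 16.3 ± 4.69 CPM per kb in WT cells, and the libraries of these genes did not overlap. CYP51A1, with 3.41 ± 2.21 CPM per kb in GFI1-KO cells and 3.53 ± 1.35 CPM per kb in WT cells, and INSIG2, with 1.52 ± 2.15 CPM per kb in GFI1-KO cells and 2.62 ± 1.90 CPM per kb in WT cells, were the lowest. The order near the top depended on the length used. With the longest transcript in place of the exon union, FDPS ranked 2 and FDFT1 3, ahead of ACLY at 4, HMGCS1 at 5 and FASN at 6, while SCD still ranked 1 and INSIG2 31, and no rank changed by more than 4.

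A RefSeq promoter window (GRCh38.p14, 250 bases before to 50 after the start) was found for 27 of the 31 genes. Letters of known SREBP and partner sites were searched on both strands. The sterol regulatory element in its 10-letter form, an A followed by TCACCCCAC, was in 1 of 27 promoters (SREBF2), against 0.0439% of the 9119 tested genes with a window. Its looser core TCANNCCAN, which that form contains, was in 6 of 27 (MSMO1, STARD4, INSIG1, MVK, ACLY and SREBF2), or 22.2%, against 14.4%. The CCAAT letters bound by the factor NF-Y were in 20 of 27, or 74.1%, against 43.5%. The Sp1 letters GGGCGG were in 25 of 27, or 92.6%, against 78.6%, and the E-box CACGTG was in 4 of 27, or 14.8%, against 12.8%. A match is a description of the letters and shows no binding.

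The 250 bases before the start are shown for 6 genes described above: FDPS and MVD as the mevalonate genes with the smallest p-values, MSMO1 as the well-counted gene with the widest gap between WT libraries, and the feedback genes SREBF2, INSIG1 and STARD4, all lower in WT replicate 2 than in WT replicate 1. The windows are FDPS (chr1:155308616-155308865, plus strand), MVD (chr16:88663092-88663341, minus strand), MSMO1 (chr4:165327419-165327668, plus strand), SREBF2 (chr22:41832855-41833104, plus strand), INSIG1 (chr7:155297628-155297877, plus strand) and STARD4 (chr5:111512536-111512785, minus strand). Each is written 5′ to 3′ along the gene's strand, and capitals mark matches to TCANNCCAN and to CCAAT on either strand, where a match on the other strand reads ATTGG. FDPS and MVD hold 3 CCAAT matches each and no core, MSMO1 holds 4 with 1 core, STARD4 holds 2 with 1 core, and SREBF2 and INSIG1 hold 1 of each.
FDPS: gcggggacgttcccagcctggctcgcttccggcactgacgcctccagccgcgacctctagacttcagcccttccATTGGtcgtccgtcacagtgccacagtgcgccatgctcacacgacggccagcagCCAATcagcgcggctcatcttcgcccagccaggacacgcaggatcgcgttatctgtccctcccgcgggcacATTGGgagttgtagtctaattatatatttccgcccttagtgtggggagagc
MVD: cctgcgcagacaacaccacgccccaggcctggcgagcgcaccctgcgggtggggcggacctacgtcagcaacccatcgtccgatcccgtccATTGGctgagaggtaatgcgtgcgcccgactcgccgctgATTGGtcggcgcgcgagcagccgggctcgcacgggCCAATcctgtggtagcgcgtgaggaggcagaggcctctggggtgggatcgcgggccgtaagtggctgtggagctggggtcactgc
MSMO1: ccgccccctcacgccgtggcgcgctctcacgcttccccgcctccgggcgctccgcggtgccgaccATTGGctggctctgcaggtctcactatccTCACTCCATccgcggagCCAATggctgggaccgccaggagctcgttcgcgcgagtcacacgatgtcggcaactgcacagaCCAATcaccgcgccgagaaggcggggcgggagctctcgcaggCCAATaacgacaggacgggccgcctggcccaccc
SREBF2: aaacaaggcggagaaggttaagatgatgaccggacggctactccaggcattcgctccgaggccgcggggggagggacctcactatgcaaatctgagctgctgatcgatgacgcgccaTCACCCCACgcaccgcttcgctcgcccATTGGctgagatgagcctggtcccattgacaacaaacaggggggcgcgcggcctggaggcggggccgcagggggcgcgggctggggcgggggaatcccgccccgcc
INSIG1: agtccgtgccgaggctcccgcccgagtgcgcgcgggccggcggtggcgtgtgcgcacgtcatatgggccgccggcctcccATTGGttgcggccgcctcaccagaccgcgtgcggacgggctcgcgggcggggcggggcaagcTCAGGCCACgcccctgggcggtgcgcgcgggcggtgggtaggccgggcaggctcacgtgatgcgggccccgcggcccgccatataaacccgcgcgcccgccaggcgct
STARD4: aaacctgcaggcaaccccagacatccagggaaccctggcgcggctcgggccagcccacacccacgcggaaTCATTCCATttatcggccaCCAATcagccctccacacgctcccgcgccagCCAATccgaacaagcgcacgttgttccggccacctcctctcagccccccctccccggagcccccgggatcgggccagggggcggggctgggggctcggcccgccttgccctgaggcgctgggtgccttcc

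Genes of neighbouring lipid pathways were read from the same fit, and none of them was called by edgeR. None of the isoprenoid or SREBP processing genes had an unadjusted edgeR p under 0.05, beside 9.35% of all genes tested. Such a p was found for 1 of 5 tested genes of other sterol steps and 2 of 18 of fatty acid modification. It was also found for 1 of 15 genes of sterol transport and 1 of 8 of efflux. DESeq2 and limma-voom called none of them, and 1 gene of the efflux list was called when GFI1-KO replicate 1 was left out. Among 5 tested genes of other sterol steps the median log2 fold change was 0.35. The 22 genes of SREBP processing and its partner factors had a median of 0.03, led by SPRING1 (log2 fold change 0.53, SE 0.25, edgeR adjusted p = 0.538) and SEC24B (log2 fold change 0.47, SE 0.26, edgeR adjusted p = 0.659).

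The 18 tested genes of fatty acid elongation, desaturation and activation had a median of 0.07, with FADS3 (log2 fold change -0.87, SE 0.40, edgeR adjusted p = 0.514) and HACD1 (log2 fold change -0.73, SE 0.35, edgeR adjusted p = 0.534) at the smallest p-values, both lower in GFI1-KO cells by estimate. For 15 genes of sterol transport and esterification the median was 0.26, with VLDLR, a lipoprotein receptor, at 6.62 and 6.68 CPM in the GFI1-KO libraries and 3.13 and 1.68 CPM in the WT libraries (log2 fold change 1.46, SE 0.70, edgeR adjusted p = 0.534), from 1 count in GFI1-KO replicate 1. SCARB1, which takes up cholesterol from high-density lipoprotein, had 39.7 and 51.2 CPM in the GFI1-KO libraries and 68.8 and 75.5 CPM in the WT libraries (log2 fold change -0.55, SE 0.27, edgeR adjusted p = 0.55). The 13 tested genes of the isoprenoid branch had a median of -0.06, with RABGGTB (log2 fold change -0.38, SE 0.27, edgeR adjusted p = 0.801) and FNTA (log2 fold change 0.35, SE 0.27, edgeR adjusted p = 0.811) first by p.

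The 8 tested genes of cholesterol efflux and the sterol-sensing LXR receptors had a median of -0.11, with 4 above 0 and 4 below. MYLIP, a known LXR target and the lowest of the 8 by fold change, had 13.2 and 32.5 CPM in the GFI1-KO libraries and 34.4 and 62.1 CPM in the WT libraries (log2 fold change -0.70, SE 0.36, edgeR adjusted p = 0.594). Between the WT libraries 6 of these 8 genes were higher in WT replicate 2, beside 5655 of all 11380 genes tested. The exact counting interval of the ratio lay wholly above 1 for 3 of the 8, beside 13.2% of all genes tested. The ratio of WT replicate 2 to WT replicate 1 was 1.81 (95% interval 1.36 to 2.41) for MYLIP and, for genes chosen after their values were seen, 1.54 (95% interval 1.09 to 2.19) for ABCA1 and 2.95 (95% interval 1.22 to 8.19) for ABCG1, both cholesterol exporters. Of the 13 isoprenoid genes, 11 were likewise higher in WT replicate 2, with a median ratio of 1.28. The counting interval lay wholly above 1 for 3 of these 13, beside the same 13.2%.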

How the data were processed

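Total RNA was isolated with Trizol and sequenced as Illumina TruSeq libraries, per the labels' protocols. The authors deposited whole-number read counts per gene, not normalized, for 4 libraries in 1 table. The tools named in the submitters' processing notes are DESeq 1.18.1, HTSeq 0.6.0, SAMtools 1.3.1 and HISAT2 2.0.4, and the builds are hg38 and GRCh38. Annotation, read filters and strand setting of the counting: not given in the sources used here. Reads of antisense or overlapping genes therefore cannot be told apart, and 13 of the 31 genes share exon bases with another annotated gene.

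Groups came from the sample titles. The 31 genes, the gene lists and their tests were chosen with earlier results of these data known. Of 19912 gene identifiers, 19902 matched GENCODE 29 (GRCh38). Counts were fitted across all genes by the quasi-likelihood test of edgeR 4.0.16 (R 4.3.3), with TMM scaling, a filterByExpr minimum count of 10 and total of 15, glmQLFit and glmQLFTest with genotype as the term, prior count 0.125, and Benjamini-Hochberg adjustment over 11380 genes at 0.05. The fit was tested on simulated data. The SE is the size of the unshrunken log2 fold change over the root of F. CPM uses TMM-adjusted totals. A count of 0 was taken to allow 3 counts, and intervals cover counting error only. CPM per kilobase uses the union of exons. Values in full are given for up to 3 genes per role with the smallest p, for SREBF1, SREBF2, INSIG1, INSIG2 and SCAP, and for up to 2 genes per other list; some genes that this rule names are not reported here, and further genes are said to be chosen later. The 1.5-fold limit between single libraries was chosen after the values were seen. Alternatives were other scalings, DESeq2 1.42.0, limma-voom (limma 3.58.1), a newer dispersion form, other low-count filters, a replicate block, thinning and leaving out each library.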

Additional observations from a re-analysis of the deposited data

How the results depend on the processing

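None of the 31 genes was called in the main fit or in any of the 14 alternative fits, nor in the median of 10 draws thinned to the total of the shallowest library. The count of all genes called, 88 higher and 21 lower in GFI1-KO cells, moved more. It was 48 higher and 10 lower with upper-quartile scaling, 57 higher with library totals alone, 25 and 4 with DESeq2, 49 and 9 with the newer dispersion form, 216 and 89 without a low-count filter, 43 and 7 at a mean of at least 5 CPM, and 13 lower at a total of at least 50 counts. Thinning gave medians of 5 and 1.5. Leaving out 1 library gave 50 to 268 higher and 12 to 105 lower, with the most calls without GFI1-KO replicate 1. With the replicate number as a block the counts were 238 and 89. The labels do not say whether the replicate numbers pair the samples. The correlation of same-numbered deviations was 0.11 over 11380 genes. It came from 2 pairs, 1 of them with the shallow GFI1-KO replicate 1, so it cannot decide this. The block therefore serves as a check. Its lowest adjusted p among the 31 was 0.154, for MVD.

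Leaving out 1 library moved the median log2 fold change between 0.020 and 0.47 over the 31 genes, 0.23 and 0.69 over the mevalonate genes, -0.037 and 0.48 over the sterol genes, and -0.18 and 0.38 over the regulators. The estimate changed sign for 14 of the 31 genes without WT replicate 2 and for 11 without GFI1-KO replicate 2, for 1 to 3 in DESeq2, limma-voom, the block and the other left-out libraries, and for none in the other fits. In a fit with a lone library in a group, that library is assumed to vary like the other group. The cause of these shifts was not tested. The shallow GFI1-KO replicate 1 and 2 libraries per genotype limit what was detectable.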
